A study of Mus musculus with 6 samples.

Results

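The response shared by a pair of morpholino reagents directed at Pdgfra was measured by taking the mean of the pA-VMO and 5'ss-VMO group means and setting it against the control VMO group. All 6 arrays of the series entered it: 4 arrays with a Pdgfra-directed reagent and 2 with the control. Of 19938 genes with a probe set that carries 1 gene symbol, 14953 passed the filter on low signal and were tested. Reagents made of vivo-morpholinos (VMO) are antisense oligomers joined to a delivery group, and they block a chosen site on an RNA without cutting it.

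Male C57/Bl6 mice aged 8 to 12 weeks had the tibialis anterior muscle injured with 30 µL of glycerol at 50% v/v, received a VMO 3 days later, and gave up their fibro/adipogenic progenitors (FAPs) 2 days after that. All 3 groups share the injury, so no uninjured or uninjected muscle stands beside them. The first group received Control VMO, the pA group received VMOs against a polyadenylation site (the label is in the plural), and the 5'ss group received a VMO against a 5' splice site. Each group has 2 arrays and each array holds cells pooled from 4 mice, so the p-values below measure the spread between pools. The mice are wild type per the labels, and a whole pool, not a mouse, is the unit of replication.

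FAPs are the stromal cells of skeletal muscle, which produce matrix, feed signals to muscle stem cells after injury and can turn into fat or scar-forming cells. Pdgfra encodes the alpha receptor for platelet-derived growth factors (PDGF), a receptor tyrosine kinase by which these cells are recognised and which drives their growth and matrix production. A cryptic polyadenylation site within an intron of Pdgfra gives a short form that lacks the kinase part. A block of the polyadenylation site and a block of the 5' splice site are designed to shift the balance of the forms in opposite directions, so the mean over both asks what any Pdgfra-directed VMO shares.

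Levels are log2 values after robust multi-array averaging (RMA), and a change is a difference of log2 levels. The defining FAP markers were well above the filter floor of 5.209 on every array, with Pdgfra between 11.24 and 11.37, Cd34 between 10.54 and 10.87, and Dcn between 12.86 and 13. Defining markers of other muscle cells were measured as well: the macrophage markers Adgre1 (5.9 to 6.57) and Cd68 (7.4 to 7.79), the endothelial marker Pecam1 (5.46 to 6.08), the satellite cell marker Pax7 (6.39 to 6.72) and the fibre marker Acta1 (7.63 to 8.01). In such bulk RNA, fewer cells of a type and less RNA per cell cannot be told apart. The correlation between arrays ran from 0.99 to 0.994 over all probe sets, and the median standard error (SE) of a pooled change was 0.064.

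Pdgfra itself differed between groups by less than its control arrays differed from each other. The control pools gave 11.37 and 11.24, the pA-VMO pools 11.29 and 11.32, and the 5'ss-VMO pools 11.31 and 11.29. All 4 reagent arrays lay between the control arrays. Its pooled change was 0.00 ± 0.06 (SE; limma adjusted p = 0.994). The reagents differed by 0.01, with a 95% interval of -0.15 to 0.16. The gene (chromosome 5, 75151322 to 75198206, GRCm38.p6) is read by a single probe set, whose value does not separate the forms of the transcript. A shift between the forms was therefore not measured here.

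None of the 9 tested members of the list of PDGF receptors and ligands passed the test in either direction. The list also holds Pdgfrl, Plat and Nrp1. Its median pooled change was 0.03 (-0.008 without 5'ss-VMO array 1 and 0.044 without control array 1) against 0.01 over all genes. Among the ligands, Pdgfa lay at 0.15 (adjusted p = 0.337), Pdgfc at 0.21 (0.446), Pdgfb at 0.03 (0.919) and Pdgfd at -0.30 (0.208). Pdgfd stood at 6.76 and 6.88 on the control arrays, 6.31 and 6.52 with pA-VMO and 6.56 and 6.71 with 5'ss-VMO. Its 4 reagent arrays were all below the control arrays. The beta receptor Pdgfrb lay at 0.12 (0.517). Of 31 tested genes of receptor tyrosine kinase feedback and the immediate early response, which growth factor signals raise, 0 were called, 2 had all 4 reagent arrays above both control arrays and 4 below, and the median was -0.03 (-0.017 without 5'ss-VMO array 2). Over all tested genes 10.3% lay above in this way and 8.38% below, near the counts of this list. Within that list Dusp1, a phosphatase that switches off MAP kinases, lay at 12.04 on both control arrays, 11.74 and 11.73 with pA-VMO and 11.93 and 11.94 with 5'ss-VMO. Its 4 reagent arrays were lower, the pA-VMO arrays most (pooled -0.21, adjusted p = 0.201).

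Of the 14953 genes, 26 (0.174%) were called at an adjusted p under 0.05, 20 higher (0.134%) and 6 lower (0.0401%). Without the adjustment 1724 genes had p under 0.05, or 11.5% of those tested, 979 of them higher (6.55%) and 745 lower (4.98%). All 4 reagent arrays lay above both control arrays for 1540 genes (10.3%) and below both for 1253 (8.38%). The counts of list members in the other paragraphs are to be read against these shares. The calls rested on both control arrays: with limma on the remaining arrays, 0 genes were called without control array 1 (1542 at unadjusted p under 0.05) and 0 without control array 2 (1283). With the 4 reagent arrays fitted as 1 group, which counts the difference between the reagents as spread, limma also called 0 (1287 at unadjusted p under 0.05, lowest adjusted p 0.256).

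Of the 20 genes that rose, 11 belong to the 4 lists of interferon-responsive and sensor genes, 1 (Cdh5) to the endothelial markers and 8 to no list. In each of the 20 the change was larger with 5'ss-VMO. Their change from control ran from 0.02 to 0.78 with pA-VMO (median 0.30) and from 0.49 to 1.39 with 5'ss-VMO (median 0.67). These comparisons share the control arrays. The difference between the reagents, which does not use the control arrays, was called for 9 of the 14953 genes (0.0602%), 2 of them higher with pA-VMO (0.0134%) and 7 higher with 5'ss-VMO (0.0468%), and 4 of the 20 were among the 7. Of the 6 genes that fell, none was called for that difference, with adjusted p from 0.0687 to 0.982.

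**Figure D1:**
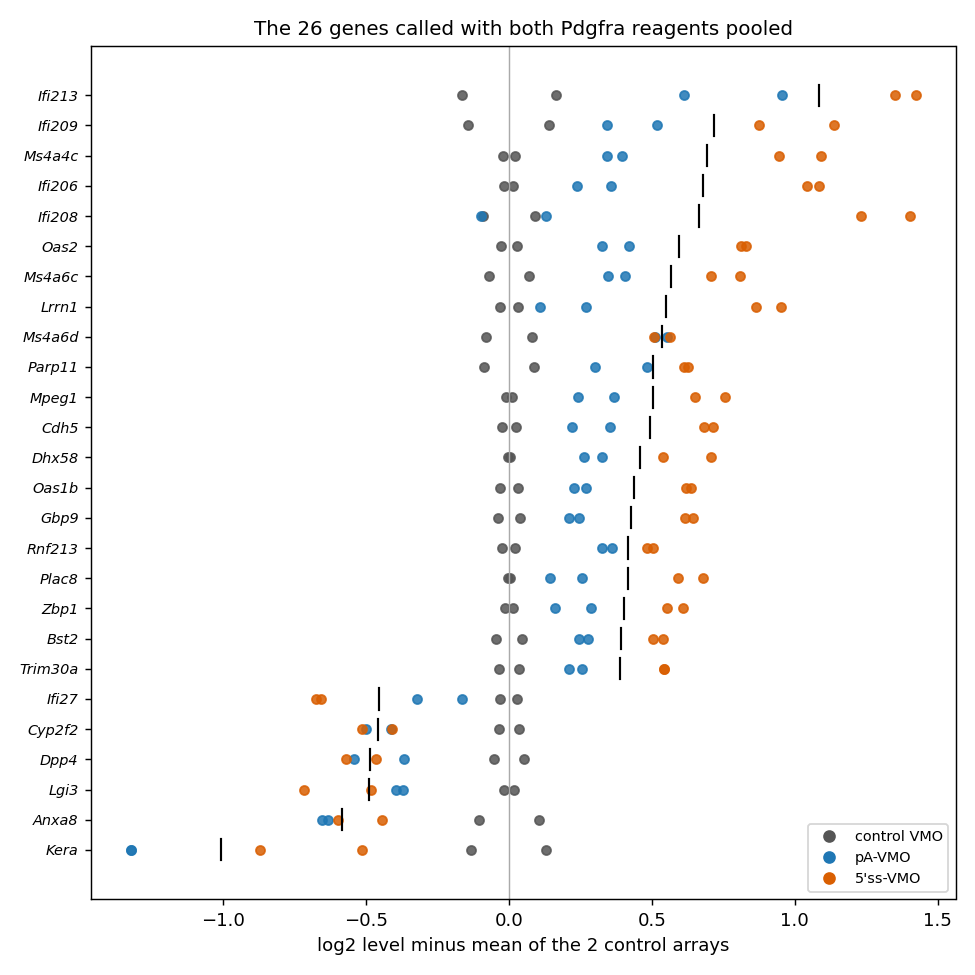
Level of the 26 called genes on each array, as the log2 level minus the mean of the control arrays, with grey points for control VMO, blue for pA-VMO, orange for 5'ss-VMO and a black bar at the pooled change. For all of the 20 genes that rose except Ifi208 the 4 reagent arrays lie above both control arrays, and the orange points lie farthest right for all except Ms4a6d, where the reagents overlap.

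Some of the called genes are neighbours on a chromosome. Of the 26 called genes, 10 lie within 1 Mb of another called gene, in 3 groups. The same share was not computed for all tested genes, so the 10 are given as a description only. Ifi206, Ifi213, Ifi209 and Ifi208 lie on chromosome 1 (173468485 to 173698393), Ms4a4c, Ms4a6c, Ms4a6d and Mpeg1 on chromosome 19 (11404717 to 12465285), and Oas2 and Oas1b on chromosome 5 (120730333 to 120824163). The Ifi200, Ms4a and Oas genes are families of close copies, and a probe of one member may read another.

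The Ifi200 family encodes proteins with pyrin and HIN domains, several of which bind DNA in the nucleus or cytoplasm. Of its 8 tested members 4 rose, 0 fell and 3 had all 4 reagent arrays above control, and the family's median was 0.36 in the pooled change, 0.01 for pA-VMO and 0.56 for 5'ss-VMO. The pooled median ran from 0.31 to 0.41 as single arrays were left out, but went down to 0.06 over all the settings tried. It falls between the members that rose, at 0.67 or more, and the others, at 0.06 or less, so it describes neither. Ifi213 (chromosome 1, 173566280 to 173599348) had the largest rise of all tested genes. It lay at 5.69 and 5.36 in control, 6.14 and 6.48 with pA-VMO and 6.95 and 6.88 with 5'ss-VMO. The groups did not overlap and the 5'ss-VMO arrays were highest. The pooled rise was 1.09 ± 0.11 (SE), or 2.12-fold (adjusted p = 0.0136), and pA-VMO minus 5'ss-VMO came to -0.60 (adjusted p = 0.0926).

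Ifi209 lay at 4.91 and 5.2, both under the filter floor, in control, at 5.4 and 5.57 with pA-VMO and at 5.93 and 6.19 with 5'ss-VMO. Its groups did not overlap (0.72 ± 0.10, adjusted p = 0.0434), and it passed the filter through the reagent arrays, where it is higher. Ifi206 lay at 6.13 and 6.16 in control, 6.38 and 6.5 with pA-VMO and 7.23 and 7.18 with 5'ss-VMO. Its pooled rise was 0.68 ± 0.06 (adjusted p = 0.011), and its rise with 5'ss-VMO exceeded that with pA-VMO by 0.77 (-0.77 as pA minus 5'ss, 95% interval -0.92 to -0.61, adjusted p = 0.00677). Ifi208 showed how a pooled call can come from 1 reagent. It lay at 6.56 and 6.38 in control, 6.37 and 6.59 with pA-VMO and 7.7 and 7.87 with 5'ss-VMO, so the pA-VMO arrays overlapped the control arrays. The pooled change of 0.67 ± 0.09 (adjusted p = 0.031) was the mean of 0.02 and 1.32, and the reagents differed by -1.30 (95% interval -1.53 to -1.08, adjusted p = 0.00533). The other 4 members, Ifi203, Ifi205, Ifi207 and Ifi202b, lay between -0.09 and 0.06.

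The promoters of Ifi213 and Ifi206 are shown because both genes rose and both hold the letters of an interferon-stimulated response element, the sequence bound by interferon-activated factors. They are RefSeq sequences (GRCm38.p6, minus strand, from 250 bases before to 50 after the start used there), at chr1:173599223-173599522 for Ifi213 and chr1:173491269-173491568 for Ifi206, with the match in capitals. The letters searched, called ISRE-like below, are GAAA, any 2 bases, and GAAA again.
Ifi213: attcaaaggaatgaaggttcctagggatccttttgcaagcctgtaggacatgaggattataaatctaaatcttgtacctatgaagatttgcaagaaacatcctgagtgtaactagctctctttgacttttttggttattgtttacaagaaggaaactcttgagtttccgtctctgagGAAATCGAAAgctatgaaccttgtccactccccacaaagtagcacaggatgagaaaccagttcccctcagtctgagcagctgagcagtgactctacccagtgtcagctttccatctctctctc
Ifi206: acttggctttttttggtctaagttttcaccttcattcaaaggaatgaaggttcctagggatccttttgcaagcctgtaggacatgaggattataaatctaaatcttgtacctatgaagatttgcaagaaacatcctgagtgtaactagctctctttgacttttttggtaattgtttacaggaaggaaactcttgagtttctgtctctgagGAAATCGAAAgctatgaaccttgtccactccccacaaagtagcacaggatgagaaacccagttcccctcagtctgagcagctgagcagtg
The match begins 73 bases before the start in Ifi213 and 40 bases before it in Ifi206, and the longest identical run of the windows is 135 bases. In the counts a gene counts once, for a match in any of its promoters. Searched on both strands, the letters occurred in 6 of the 13 genes with a promoter among the 20 that rose (46.2%) and in 6 of 8 Ifi200 genes (75%). They occurred in 1079 of all 27025 genes with a promoter (3.99%) and in 3.57% of the tested ones. Among the 6 genes that fell they occurred in 1 of the 4 promoters matched (25%), that of Dpp4. Ifi206, Ifi208 and Ifi213, which are close copies, count both among the genes that rose and among the Ifi200 promoters. Ifi209 rose without a match, and the family's other matches lie in members that did not rise. A match describes the window and is not a shown site of binding.

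Among the Ms4a genes, which encode membrane proteins with several spans found largely in blood cells, 3 rose. Ms4a4c lay at 6.06 and 6.1 in control, 6.48 and 6.43 with pA-VMO and 7.18 and 7.03 with 5'ss-VMO. Each group stood apart from the next (pooled 0.69 ± 0.06, adjusted p = 0.011), and the reagents differed by -0.65 (adjusted p = 0.0249). Ms4a6c lay at 6.01 and 6.15 in control, 6.42 and 6.48 with pA-VMO and 6.89 and 6.79 with 5'ss-VMO (pooled 0.57, adjusted p = 0.0254). Its neighbour Ms4a6d differed in pattern. It lay at 5.82 and 5.66 in control, 6.25 and 6.29 with pA-VMO and 6.25 and 6.31 with 5'ss-VMO. The reagent arrays were interleaved, and the pooled rise was 0.53 ± 0.06 (adjusted p = 0.0304). Ms4a6d had the smallest difference between the reagents of the genes that rose, 0.00 with a 95% interval of -0.17 to 0.16. Mpeg1, which encodes the pore-forming protein perforin-2 of macrophages, rose by 0.50 (adjusted p = 0.031; 0.30 for pA-VMO and 0.70 for 5'ss-VMO).

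Of 37 tested interferon-stimulated genes, 6 rose, 1 fell and 22 had all 4 reagent arrays above control against 1 below. Their median was 0.27 in the pooled change, 0.11 for pA-VMO and 0.45 for 5'ss-VMO. Over all tested genes 0.134% rose, 0.0401% fell, 10.3% lay above control on all 4 reagent arrays and 8.38% below. Oas2 makes the oligoadenylates that switch on RNase L. It lay at 7.78 and 7.83 in control, 8.13 and 8.22 with pA-VMO and 8.62 and 8.63 with 5'ss-VMO. The 3 groups stood apart, and the pooled rise was 0.60 ± 0.06 (adjusted p = 0.0127). Its relative Oas1b rose by 0.44 (adjusted p = 0.031). Rnf213, a large ubiquitin ligase, lay at 10.34 and 10.3 in control, 10.64 and 10.68 with pA-VMO and 10.8 and 10.82 with 5'ss-VMO. It rose by 0.42 (adjusted p = 0.031), and its difference between the reagents was among the smaller ones of the genes that rose (-0.15, 95% interval -0.29 to -0.01).

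The member of that list that fell was Ifi27, which encodes a small interferon-inducible membrane protein. It lay at 8.78 and 8.84 in control, 8.65 and 8.49 with pA-VMO and 8.14 and 8.15 with 5'ss-VMO. Its order of groups was the reverse of that of Oas2, and the fall was 0.45 ± 0.06 (-0.45, adjusted p = 0.0434). Bst2, or tetherin, which holds budding viruses at the cell surface, rose by 0.39 (adjusted p = 0.0443), and Parp11, a mono-ADP-ribosyltransferase, by 0.50 (adjusted p = 0.0443). Plac8 at 0.42 and Trim30a at 0.39 (both adjusted p = 0.0443) also rose, and they complete the set of called genes without having met the rule for named genes.

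Among 19 tested nucleic acid sensors and adaptors, 2 rose, 0 fell and 8 had all 4 reagent arrays above control, with a median of 0.11 (0.067 without pA-VMO array 2). The RNA helicase Dhx58 (LGP2) lay at 7.64 on both control arrays, 7.9 and 7.96 with pA-VMO and 8.18 and 8.35 with 5'ss-VMO. It rose by 0.46 ± 0.06 (adjusted p = 0.0434). Zbp1, which binds left-handed nucleic acid, lay at 9.1 and 9.13 in control, 9.28 and 9.4 with pA-VMO and 9.72 and 9.67 with 5'ss-VMO. It rose by 0.40 (adjusted p = 0.0493). The sensors and the interferon-stimulated list share 6 members.

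Of 25 tested interferon-gamma and antigen presentation genes, 1 rose, 0 fell and 10 had all 4 reagent arrays above control, with medians of 0.22 pooled (0.146 without control array 1), 0.08 for pA-VMO and 0.35 for 5'ss-VMO. The guanylate-binding protein Gbp9 lay at 7.01 and 7.08 in control, 7.29 and 7.25 with pA-VMO and 7.66 and 7.69 with 5'ss-VMO. It rose by 0.43 ± 0.06 (adjusted p = 0.031). The T cell attractant Cxcl9 lay at 11.81 and 11.85 in control, 12 and 12.09 with pA-VMO and 12.37 and 12.35 with 5'ss-VMO. The groups of Cxcl9 did not overlap, and its 0.37 did not pass (adjusted p = 0.0547). Of 29 tested cytokines and chemokines, 0 were called, 4 lay above and 3 below control on all 4 arrays, and the median was 0.03 (0.007 without pA-VMO array 2). Those counts were near the shares of all tested genes (10.3% above and 8.38% below). Il1b, the fever-inducing interleukin, lay at 6.51 and 6.6 in control, 6.99 and 7.11 with pA-VMO and 7.38 and 7 with 5'ss-VMO. The 4 reagent arrays were higher, at a pooled 0.57 that did not pass (adjusted p = 0.0798). The eosinophil attractant Ccl11 lay at 0.29 (adjusted p = 0.161).

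**Figure D2:**
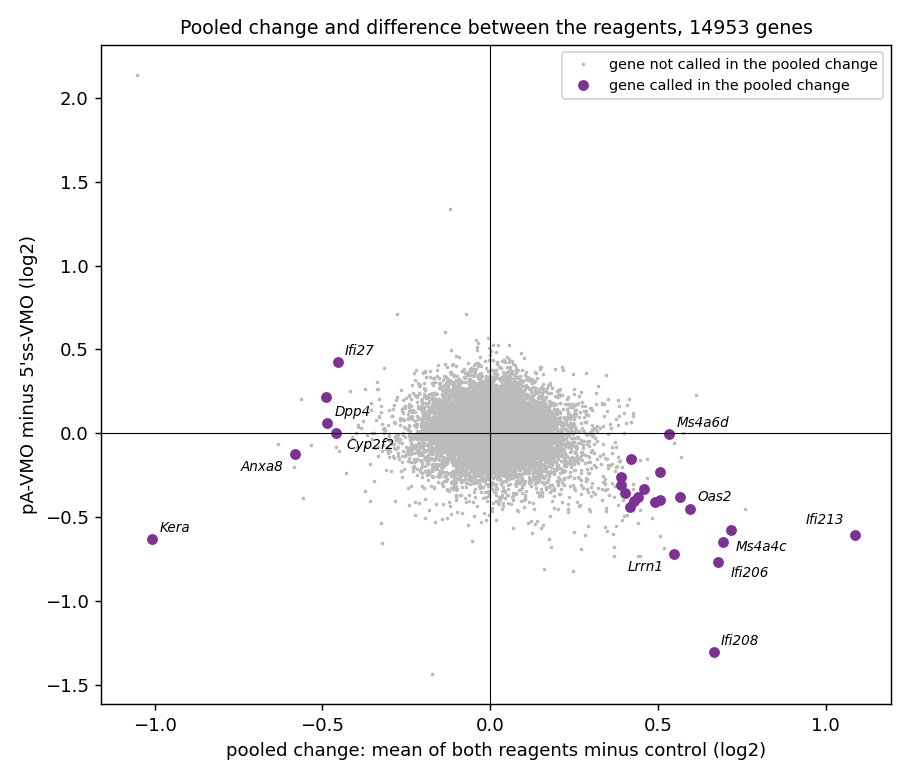
Pooled change (x, log2) against the difference between pA-VMO and 5'ss-VMO (y, log2) for the 14953 genes, with the 26 called genes in purple. The genes that rose lie at or below 0 on the y axis, from Ms4a6d at 0.00 to Ifi208 at -1.30, and Kera and Ifi27, which both fell, lie on opposite sides of 0.

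Markers of macrophages lay higher on the same arrays. Of 19 tested macrophage markers of 20 listed, 0 were called, 18 had a pooled change above 0, 12 lay above control on all 4 arrays and 0 below, and the median was 0.27 (0.22 for pA-VMO and 0.31 for 5'ss-VMO). As means over the list relative to control, the control arrays lay at -0.10 and 0.10, the pA-VMO arrays at 0.20 and 0.18 and the 5'ss-VMO arrays at 0.29 and 0.28. The control arrays thus differed from each other by about as much as the nearest reagent array differed from their mean. Without control array 1 the median was 0.15. Ms4a7, counted among the 19, was under the filter floor on both control arrays (5.04 and 5.15). It passed the filter through its reagent arrays, which favours its rise of 0.41. The complement subunit C1qc lay at 6.3 and 6.44 in control, 6.58 and 6.5 with pA-VMO and 6.86 and 6.88 with 5'ss-VMO. The lysosomal marker Cd68 lay at 7.4 and 7.45 in control, 7.79 and 7.77 with pA-VMO and 7.57 and 7.67 with 5'ss-VMO. Both lay above control on all 4 arrays, C1qc with its highest values in the 5'ss-VMO arrays (pooled 0.33, adjusted p = 0.086) and Cd68 in the pA-VMO arrays (0.27, adjusted p = 0.128). The defining markers Adgre1, Cd68 and Csf1r were above the filter floor on every array, and the part of these cells in the rise of the interferon and Ms4a genes was not tested.

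Of 12 tested endothelial markers, 1 rose, 0 fell and 5 lay above and 1 below control on all 4 arrays, with a median of 0.15, which was 0.02 without control array 1. The gene that rose was Cdh5, the cadherin of endothelial junctions, at 6.59 and 6.54 in control, 6.92 and 6.78 with pA-VMO and 7.24 and 7.27 with 5'ss-VMO. Its groups stood apart (pooled 0.49 ± 0.06, adjusted p = 0.031). The defining marker Pecam1 lay at 5.46 and 5.7 in control, 5.88 and 5.84 with pA-VMO and 6.03 and 6.08 with 5'ss-VMO, above control on all 4 arrays (0.37, adjusted p = 0.0913). Kdr, the third defining marker with Cdh5 and Pecam1, lay at 0.18 (adjusted p = 0.595). Pericyte and smooth muscle markers had a median of 0.12 over 11 tested genes, 7 of them above control on all 4 arrays and 0 called, and Mcam, the member with the smallest p, lay at 0.35 (adjusted p = 0.0829).

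The pooled medians of the marker lists given next were nearer to that of all genes (0.01), though not all of their counts or reagent medians were. Satellite cell and myoblast markers (15 tested, median 0.07, 0 called) had 2 members above control on all 4 arrays, and the fibre markers (14 tested, 0.09, 0 called) had 4. Lymphocyte (7 tested, 0.06), neutrophil (5 tested, 0.07) and erythroid markers (2 tested, 0.05) had 0 called. Without control array 1 these medians were 0.025 for fibre, -0.003 for lymphocyte, 0.042 for neutrophil and -0.008 for erythroid markers, and without control array 2 they were 0.105 for lymphocyte and 0.108 for erythroid markers. Without 5'ss-VMO array 2 that of the satellite cell markers was 0.109. Schwann cell markers had 3 of 8 below control on all 4 arrays, with a median of -0.05 and 0 called. Over all tested genes 10.3% lay above and 8.38% below in this way, smaller shares than those of the fibre and Schwann cell lists. The reagents went opposite ways in some lists. The median was -0.025 for pA-VMO and 0.12 for 5'ss-VMO over the satellite cell markers, and 0.236 and -0.136 over the erythroid markers. It was 0.129 and 0.003 over the lymphocyte markers and 0.127 and 0.011 over the neutrophil markers.

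**Figure D3:**
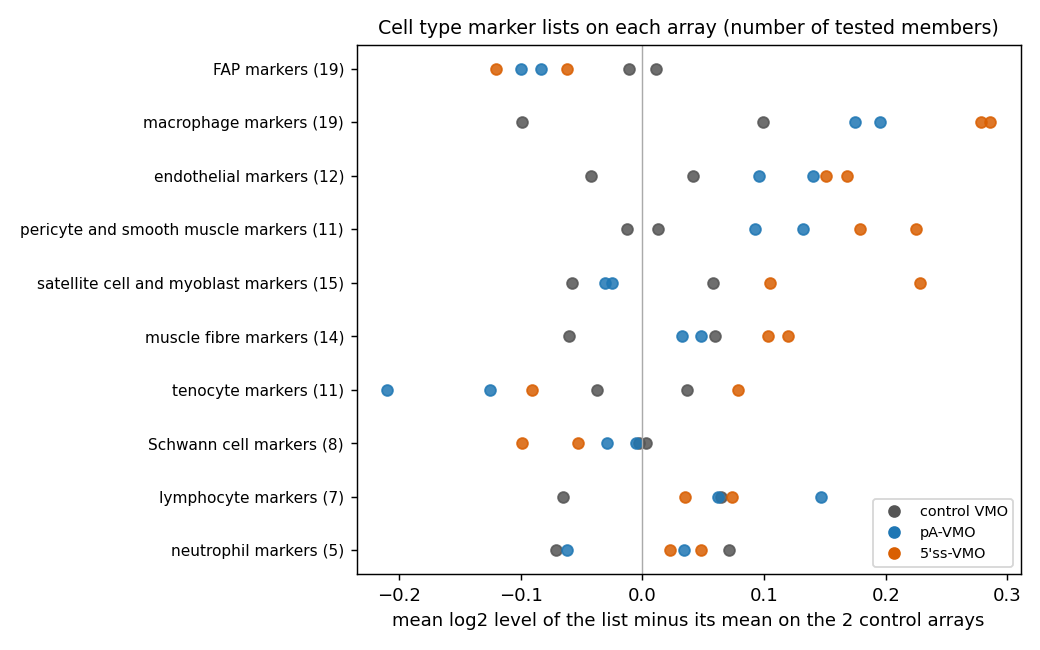
Mean log2 level of each cell type marker list on each array, relative to its mean on the control arrays, with grey points for control VMO, blue for pA-VMO and orange for 5'ss-VMO. The macrophage list lies at 0.18 to 0.29 on the 4 reagent arrays, with the control arrays at -0.10 and 0.10, and the FAP list lies at -0.12 to -0.06 with the control arrays at -0.01 and 0.01.

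The last of the genes that rose, Lrrn1, encodes a leucine-rich repeat membrane protein known from neurons. It lay at 4.93 and 4.87 in control, 5.17 and 5.01 with pA-VMO and 5.85 and 5.77 with 5'ss-VMO. The control and pA-VMO arrays were all under the filter floor, so Lrrn1 entered the test through its 5'ss-VMO arrays alone and a difference was built into its selection. The pA-VMO arrays were close to control (0.19) and the 5'ss-VMO arrays clear of it (0.91). The fit gave a pooled change of 0.55 (adjusted p = 0.0304) and a difference between the reagents of -0.72 (adjusted p = 0.0212), which the filter favours.

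The 6 genes that fell were Kera, Anxa8, Lgi3, Dpp4, Cyp2f2 and Ifi27. Kera (chromosome 10, 97606962 to 97613688) encodes keratocan, a small leucine-rich proteoglycan that spaces collagen fibrils. It lay at 7.97 and 7.71 in control, 6.52 and 6.52 with pA-VMO and 6.97 and 7.32 with 5'ss-VMO. Each reagent array was lower, the pA-VMO arrays most. The fall was 1.01 ± 0.10 (-1.01), or 2.01-fold (adjusted p = 0.0136). Kera and Anxa8 were the 2 of the 6 with the larger change under pA-VMO, at -1.32 against -0.69 for Kera, although the reagents' difference was not called (-0.63, adjusted p = 0.0717). Kera, with Ifi206, Ms4a4c and Oas2, was still called when any 1 of the 4 reagent arrays was left out.

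Dpp4 (chromosome 2, 62330073 to 62412315) encodes a surface peptidase that marks a progenitor-like subset of fibroblasts. It lay at 7.74 and 7.64 in control, 7.15 and 7.32 with pA-VMO and 7.12 and 7.23 with 5'ss-VMO. The reagent groups overlapped each other and not the control arrays. The fall was 0.49 ± 0.07 (-0.49, adjusted p = 0.0443), and the reagents differed by 0.06 (95% interval -0.12 to 0.25). Cyp2f2 (chromosome 7, 27119955 to 27133660), a cytochrome P450, lay at 8.2 and 8.13 in control, 7.75 and 7.66 with pA-VMO and 7.75 and 7.65 with 5'ss-VMO. The arrays of both reagents covered nearly the same range, with a fall of 0.46 ± 0.06 (-0.46, adjusted p = 0.0347) and a difference of 0.01 (95% interval -0.16 to 0.17).

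Anxa8 (chromosome 14, 34085979 to 34100571), a calcium-dependent phospholipid-binding annexin, lay at 8.08 and 7.87 in control, 7.34 and 7.32 with pA-VMO and 7.53 and 7.38 with 5'ss-VMO. The reagent arrays were all lower, by a pooled 0.58 ± 0.08 (-0.58, adjusted p = 0.031). The reagents differed by -0.12 (95% interval -0.32 to 0.07). The other 9 tested annexins were not called, and the median of the 10 was 0.01 (0.024 without pA-VMO array 2). Lgi3, a secreted leucine-rich protein, lay at 7.32 and 7.36 in control, 6.95 and 6.97 with pA-VMO and 6.62 and 6.86 with 5'ss-VMO. It fell by 0.49 (-0.49, adjusted p = 0.0443).

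Just outside the threshold on the lower side, Sema3c, a secreted guidance protein, lay at 9.17 and 9.13 in control, 8.54 and 8.75 with pA-VMO and 8.69 and 8.77 with 5'ss-VMO (pooled -0.46, adjusted p = 0.0529). The adhesion protein gene Chl1 lay at 9.03 and 8.84 in control, 8.6 and 8.35 with pA-VMO and 8.34 and 8.2 with 5'ss-VMO (-0.56, adjusted p = 0.0542). Neither passed, and in both the 4 reagent arrays lay below the control arrays. Efhd1, a calcium-binding protein of mitochondria, lay at -0.45 with either reagent (pooled adjusted p = 0.075).

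Of 19 tested FAP markers, 0 rose, Dpp4 fell and 8 lay below and 2 above control on all 4 arrays, with a median of -0.08 (-0.07 for pA-VMO and -0.07 for 5'ss-VMO). The list's mean was lower on all 4 reagent arrays, at -0.10, -0.08, -0.06 and -0.12, than on the control arrays at 0.01 and -0.01. Lum, the proteoglycan lumican, lay at 11.94 and 11.92 in control, 11.73 and 11.75 with pA-VMO and 11.6 and 11.6 with 5'ss-VMO. It was lower with both reagents without passing (-0.26, adjusted p = 0.109). Cd34 lay at -0.23 (adjusted p = 0.211). The small leucine-rich proteoglycans had 13 tested members, of which 0 rose, Kera fell and 5 lay below and 1 above control on all 4 arrays. They share 2 members with the FAP markers (Lum and Dcn) and 3 with the tenocyte markers (Kera, Fmod and Chad). Their median was -0.10, and -0.04 without control array 1.

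The G2 and M phase, S phase and histone genes lay above control with both reagents as lists, and none passed the test alone. The medians of the reagents were closest for the G2 and M phase genes. All of 37 tested G2 and M phase genes had a pooled change above 0, 23 lay above control on all 4 arrays and 0 below (against 10.3% and 8.38% of all genes), and the median was 0.21 (0.23 for pA-VMO and 0.22 for 5'ss-VMO). Of these 37, 0 were called by limma. The pooled median ran from 0.17 to 0.26 over the fits without 1 array. As a mean over the list, the control arrays lay at 0.03 and -0.03, the pA-VMO arrays at 0.26 and 0.23 and the 5'ss-VMO arrays at 0.13 and 0.32. The reagent arrays were thus all higher, and the lowest and the highest of them were both 5'ss-VMO arrays.

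Mki67, the proliferation antigen Ki-67, lay at 7.73 and 7.63 in control, 8.2 and 8.31 with pA-VMO and 8.1 and 8.41 with 5'ss-VMO. Its pooled change was 0.57 ± 0.09 (adjusted p = 0.0541), at 0.57 with each reagent, and the difference between them was 0.00 (95% interval -0.23 to 0.23). Kif20b, a kinesin of cytokinesis, lay at 5.17 and 4.96 in control, 5.49 and 5.44 with pA-VMO and 5.46 on both 5'ss-VMO arrays. All 4 reagent arrays were higher at like levels (0.40, adjusted p = 0.0791; difference 0.01, 95% interval -0.17 to 0.19). Both control arrays were under the filter floor, so Kif20b passed the filter through its reagent arrays, the 1 member of the 37 for which this holds. The condensin subunit Ncapg lay at 0.36 (adjusted p = 0.0829) and Racgap1, which organises the cleavage furrow, at 0.32 (adjusted p = 0.0946).

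The promoters of Mki67 and Kif20b are shown because they have the smallest p-values of that list and each holds the letters TTTGAA, found in the cell cycle homology region through which repressor complexes silence mitotic genes in resting cells. They are RefSeq sequences (GRCm38.p6), chr7:135716330-135716629 on the minus strand for Mki67 and chr19:34922108-34922407 on the plus strand for Kif20b, with the matches in capitals.
Mki67: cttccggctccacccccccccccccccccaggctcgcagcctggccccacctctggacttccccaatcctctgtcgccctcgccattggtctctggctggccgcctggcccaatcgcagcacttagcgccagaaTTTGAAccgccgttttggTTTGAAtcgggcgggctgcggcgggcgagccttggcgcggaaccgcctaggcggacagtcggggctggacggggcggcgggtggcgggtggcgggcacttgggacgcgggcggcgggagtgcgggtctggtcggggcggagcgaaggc
Kif20b: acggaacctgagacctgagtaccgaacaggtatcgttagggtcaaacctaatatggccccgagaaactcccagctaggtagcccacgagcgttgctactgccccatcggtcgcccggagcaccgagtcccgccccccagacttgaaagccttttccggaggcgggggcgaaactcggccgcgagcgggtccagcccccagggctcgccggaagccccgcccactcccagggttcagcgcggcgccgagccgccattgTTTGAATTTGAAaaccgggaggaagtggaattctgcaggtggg
Each promoter holds 2 matches, the first of which begins 116 bases before the start in Mki67 and 8 bases after it in Kif20b. On either strand and counted by gene, the letters occurred in 26 of the 33 G2 and M phase genes with a promoter (78.8%) and in 4 of 30 S phase genes (13.3%). They occurred in 20.2% of all genes with a promoter and in 14.3% of the tested ones. They also occurred in 7 of the 13 promoters matched among the genes that rose (53.8%), Ifi213 and Ifi206 among them, and in 2 of the 4 among those that fell (50%). The CCAAT box (CCAAT, either strand) was in 69.7% of the G2 and M phase genes with a promoter and in 8 of 8 histone genes. It was in 41.1% of all genes with a promoter.

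Of 34 tested S phase and replication genes, all had a pooled change above 0, 20 lay above control on all 4 arrays, 0 below, and 0 were called. Their median was 0.16 (0.20 for pA-VMO and 0.15 for 5'ss-VMO) and ran from 0.14 to 0.19 over the fits without 1 array. Hells, a chromatin remodeller of dividing cells, lay at 6.24 and 6.22 in control, 6.55 and 6.5 with pA-VMO and 6.65 and 6.8 with 5'ss-VMO. Its groups did not overlap (0.39, adjusted p = 0.0574). Mcm2, a subunit of the replicative helicase, lay at 7.37 and 7.33 in control, 7.62 and 7.65 with pA-VMO and 7.52 and 7.69 with 5'ss-VMO. All 4 reagent arrays were higher, and the change of 0.27 did not pass (adjusted p = 0.163).

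Replication-dependent histone genes, which are transcribed as DNA is copied, had 8 tested members, of which 7 lay above control on all 4 arrays and 0 were called. Their median was 0.23 (0.18 for pA-VMO and 0.26 for 5'ss-VMO). H1f1 lay at 8.33 and 8.43 in control, 8.7 and 8.7 with pA-VMO and 8.62 and 8.65 with 5'ss-VMO (0.28, adjusted p = 0.107). H2bc18 lay at 7.14 and 7.2 in control, 7.49 and 7.4 with pA-VMO and 7.43 and 7.54 with 5'ss-VMO (0.29, adjusted p = 0.128). Both were higher on all 4 reagent arrays. Histone genes are near-identical copies whose probes may not tell them apart. Of 21 tested cell cycle exit genes, 0 were called and 5 lay below and 0 above control on all 4 arrays, with medians of -0.06 pooled (-0.042 without 5'ss-VMO array 1), -0.10 for pA-VMO and 0.03 for 5'ss-VMO. Trp53inp1, a stress-induced partner of p53, lay at -0.22 (adjusted p = 0.201) and Rbl2, the pocket protein p130 of resting cells, at -0.22 (adjusted p = 0.241).

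**Figure D4:**
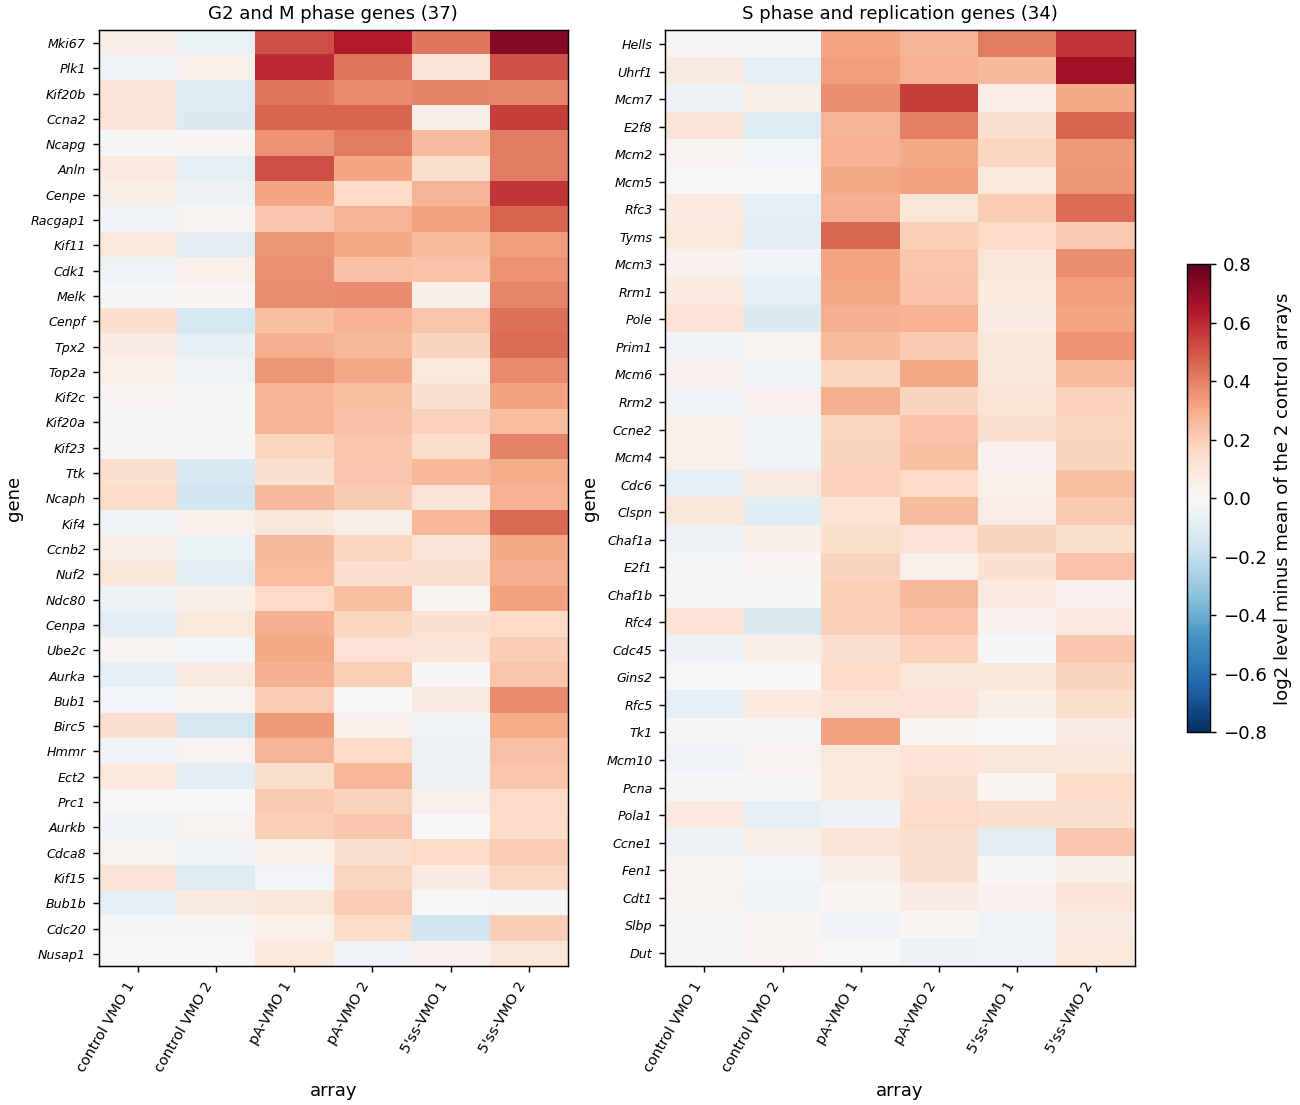
Levels of the 37 tested G2 and M phase genes and the 34 tested S phase genes (rows) on the 6 arrays (columns), coloured by the log2 level minus the mean of the control arrays. The 4 reagent columns are redder than the control columns, least so for 5'ss-VMO array 1, whose list means were 0.13 and 0.09.

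Genes of the contractile apparatus were also higher as a list. Of 25 tested myofibroblast contractile genes, 17 lay above control on all 4 arrays and 1 below, 0 were called, and the median was 0.16 (0.13 for pA-VMO and 0.20 for 5'ss-VMO), from 0.13 to 0.19 over the fits without 1 array. The actin-binding Tagln lay at 7.85 and 7.9 in control, 8.14 and 8.34 with pA-VMO and 8.21 and 8.59 with 5'ss-VMO (0.45, adjusted p = 0.162). Myh9, a non-muscle myosin, lay at 10.18 and 10.11 in control, 10.37 and 10.43 with pA-VMO and 10.35 and 10.48 with 5'ss-VMO (0.26, adjusted p = 0.163). Both were higher on all 4 reagent arrays, with the highest value on the second 5'ss-VMO array. Acta2, the smooth muscle actin that marks myofibroblasts and pericytes alike, lay at 0.37 (adjusted p = 0.211). The pericyte markers given above lay the same way, and their part in this list was not tested.

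Matrix genes showed no common direction. Of 20 tested collagens, 5 lay above control on all 4 arrays and 0 below, with a median of 0.05 that was 0.003 without control array 2 (10 members above 0 and 10 below) and 0.08 without control array 1, and Col8a1 had the smallest p at 0.25 (adjusted p = 0.145). Of 27 tested matrix glycoproteins, 5 lay above and 5 below, with a median of -0.02 that was 0.015 without control array 1 and -0.057 without control array 2. Tgfbi, a cell adhesion protein named for its induction by TGF-beta, lay at 11.22 and 11.16 in control, 10.89 and 10.83 with pA-VMO and 10.91 and 10.89 with 5'ss-VMO. Tnc, the injury-induced tenascin C, lay at 11.86 and 11.87 in control, 12.05 and 12.09 with pA-VMO and 12.24 on both 5'ss-VMO arrays. On all 4 reagent arrays Tgfbi was lower (-0.31) and Tnc higher (0.29), both at an adjusted p of 0.0829 that did not pass. Comp, a cartilage and tendon matrix protein, lay at -0.32 (adjusted p = 0.0829). The tenocyte markers, to which Kera and Comp also belong, had a median of -0.01 over 11 tested genes (0.076 without pA-VMO array 1 and -0.027 without 5'ss-VMO array 2), with Kera as the 1 call.

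Among 21 tested matrix proteases and inhibitors 0 were called, 3 lay above and 4 below control on all 4 arrays, and the median was -0.05 (-0.005 without 5'ss-VMO array 2). The collagenase Mmp13 lay at 10.27 and 10.03 in control, 9.38 and 9.58 with pA-VMO and 9.73 and 9.37 with 5'ss-VMO. All 4 reagent arrays were lower (-0.63, adjusted p = 0.0829), with the difference between the reagents at -0.07 (95% interval -0.36 to 0.23). The inhibitor Timp3 lay at 0.23 (adjusted p = 0.267). TGF-beta target genes had a median of -0.05 (-0.027 without pA-VMO array 1) over 18 tested members, 0 of them called, 1 above and 3 below control on all 4 arrays.

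Wnt, BMP and Hedgehog antagonists and readouts had 28 tested members, 0 called, 1 above and 5 below control on all 4 arrays, and a median of -0.03 (-0.064 without 5'ss-VMO array 2). Gdf10, a secreted BMP-like factor made by FAPs, lay at 9.56 and 9.72 in control, 9.35 and 9.18 with pA-VMO and 9.25 and 9.22 with 5'ss-VMO. The secreted Wnt antagonist Sfrp4 lay at 9.51 and 9.74 in control, 8.97 and 9.28 with pA-VMO and 9.23 and 9.22 with 5'ss-VMO. Both were lower on all 4 reagent arrays, by amounts that did not pass (-0.39, adjusted p = 0.0838, and -0.45, adjusted p = 0.125).

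Proteasome subunits lay above control by little and nearly all in 1 direction. Of 33 tested subunits, 31 had a pooled change above 0, 19 lay above control on all 4 arrays and 0 below, 0 were called, and the median was 0.11 (0.09 for pA-VMO and 0.12 for 5'ss-VMO). The ATPase subunit Psmc3 lay at 8.23 on both control arrays, 8.4 and 8.38 with pA-VMO and 8.46 and 8.42 with 5'ss-VMO (0.19, adjusted p = 0.245). The core subunit Psma1 lay at 9.29 and 9.25 in control, 9.51 and 9.45 with pA-VMO and 9.37 and 9.57 with 5'ss-VMO (0.21, adjusted p = 0.293). Both were higher on all 4 reagent arrays. Of 29 tested polyadenylation, splicing and U1 factors, the machinery that reads the blocked sites, 0 were called and 7 lay above and 1 below control on all 4 arrays, with a median of 0.07 (0.04 without 5'ss-VMO array 2). Snrnp70, the U1 70K protein, lay at 8.49 and 8.47 in control, 8.61 and 8.68 with pA-VMO and 8.7 and 8.73 with 5'ss-VMO (0.20, adjusted p = 0.232).

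Lists of metabolism and stress held 0 called genes. Cholesterol synthesis genes (20 tested) had a median of 0.06 (0.135 without 5'ss-VMO array 1 and 0.038 without 5'ss-VMO array 2), and the sterol demethylase Cyp51 lay at 7.31 and 6.86 in control, 7.75 and 7.65 with pA-VMO and 7.39 and 7.82 with 5'ss-VMO. Its control arrays differed by nearly as much as the pooled change of 0.57 (adjusted p = 0.176). Adipogenic genes (20 tested) had a median of -0.03 (0.003 without control array 2), with the desaturase Scd1 at -0.32 (adjusted p = 0.119) and the fatty acid carrier Cd36 at 0.40 (adjusted p = 0.163). Ribosome biogenesis genes (30 tested) had a median of 0.05 (0.016 without pA-VMO array 2 and 0.078 without pA-VMO array 1). Glycolysis and hypoxia genes (20 tested) had 0.08, carried by 5'ss-VMO array 2: the list's mean was 0.263 there and -0.002 to 0.008 on the other 3 reagent arrays, and the median without that array was 0.019 (0.126 without control array 1). Unfolded protein and amino acid stress genes (23 tested) had 0.06 (0.039 without 5'ss-VMO array 2 and 0.105 without control array 1). Heat shock and chaperone genes (15 tested) had a pooled median of -0.05 (-0.08 without control array 1 and -0.026 without control array 2), with -0.12 for pA-VMO and 0.03 for 5'ss-VMO. The inducible chaperone Hspa1a lay at 11.03 and 11.04 in control, 10.66 and 10.58 with pA-VMO and 11.13 and 11.02 with 5'ss-VMO. Only the pA-VMO arrays of Hspa1a lay apart from control, and its reagents' difference was not called (-0.46, adjusted p = 0.0626).

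**Figure D5:**
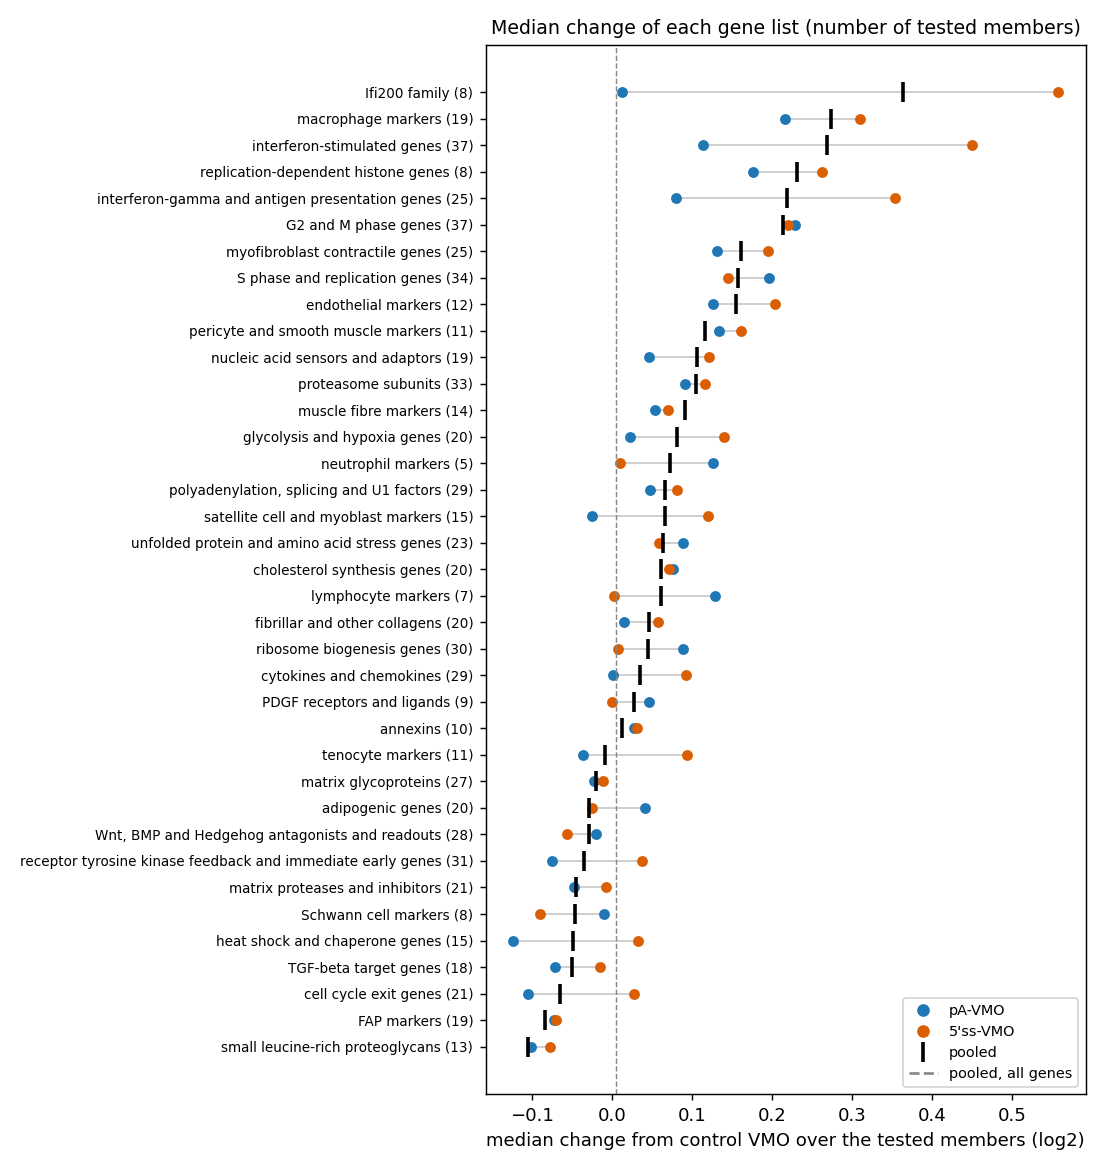
Median change from control over the tested members of the 37 lists with at least 5 of them, with a black bar for the pooled change, blue for pA-VMO and orange for 5'ss-VMO, and a dashed line at the pooled median of all genes (0.01). The interferon and Ifi200 lists have wide gaps between the reagents (0.01 and 0.56 for Ifi200), and the G2 and M phase list has nearly none (0.23 and 0.22).

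As means over a list, 13 of the 38 lists lay above both control arrays on all 4 reagent arrays, 4 lay below and 21 overlapped. The 13 were the macrophage, endothelial and pericyte markers, the interferon-stimulated, Ifi200 and sensor genes, the G2 and M phase, S phase and histone genes, and the contractile, unfolded protein, polyadenylation factor and proteasome genes. The 4 below were the FAP and Schwann cell markers, the small leucine-rich proteoglycans and the Wnt, BMP and Hedgehog list. Some margins were very small. The nearest reagent array lay at -0.005 against -0.003 in control for the Schwann cell markers and at 0.010 against 0.003 for the sensors. For the unfolded protein genes it lay at 0.022 against 0.003. The mean of all tested genes lay at 0.003 to 0.013 on the reagent arrays and at -0.005 and 0.005 on the control arrays.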

How the data were processed

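Per the labels, each of the 6 arrays (Affymetrix Mouse Gene 1.0 ST) read RNA pooled from FAPs of 4 mice. The values the authors deposited are log2 levels. RMA in Affymetrix Expression Console, per the submitters' processing notes, produced them. It equalises the distributions of the arrays, and a shift in RNA per cell therefore cannot be seen. Settings and software version are not given in the sources used. The number of arrays limits the precision.

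Of 35556 probe sets, 21789 have 1 gene symbol in the platform annotation, 1621 several and 12146 none, and the latter were not named. They stand for 19938 genes. The probe set with the highest mean was taken for the 999 genes with several. A floor at the 25th percentile of gene means (5.209) left 14953.

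Group means were fitted with limma 3.58.1 (R 4.3.3) on all 6 arrays, with eBayes without trend, no block, and 3 residual and 6.06 prior degrees of freedom. The pooled contrast was the mean of both reagent groups minus control, and the second contrast was pA-VMO minus 5'ss-VMO. Two-sided tests were used, and a call needed an adjusted p (Benjamini-Hochberg, all 14953 genes) under 0.05. An exact permutation of 4 against 2 arrays cannot go below p = 0.0667. On simulated data with 200 of 14953 genes changed, the pooled contrast recovered 70% at a log2 change of 0.3 and 99.3% at 0.5, and 7.19% of its calls were false. The simulated noise was normal and independent, at the fitted spread of each gene, and each change was equal on all 4 reagent arrays. Differences between the reagents and effects that genes of a pool share were not simulated, so these rates may not hold for the real arrays.

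The comparison, its genes and the 38 gene lists (826 members, 769 on the array, 733 tested) were chosen with earlier results of these data known. The lists have no test and are described by counts and medians. Named genes were Pdgfra, up to 15 called genes of each direction by size (filled up on the lower side by the smallest p), up to 4 of each list by p, and the called genes with the most certain or the smallest reagent difference. Predicted genes, chemosensory receptors, small RNAs and immune receptor segments were not named. Alternatives tried were a replicate block, the filter, the prior, 2 groups only, the mean of probe sets, other scalings and each array left out. Sequences came from RefSeq tables (GRCm38.p6).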

Additional observations from a re-analysis of the deposited data

Results flagged for a closer look

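The reagents differed from each other by limma's test in 4 of the called genes, as pA-VMO minus 5'ss-VMO: Ifi208 by -1.3 (adjusted p = 0.00533), Ifi206 by -0.77 (0.00677), Lrrn1 by -0.72 (0.0212) and Ms4a4c by -0.65 (0.0249). Lrrn1 passed the filter on low signal through its 5'ss-VMO arrays alone. For these the pooled change is a mean of unequal parts, least equal for Ifi208 at 0.02 for pA-VMO and 1.32 for 5'ss-VMO.

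Among the list members named, 2 blood cell genes had both pA-VMO arrays above and both 5'ss-VMO arrays below the control arrays. Cd3e, a T cell receptor subunit, lay at 0.24 for pA-VMO and -0.09 for 5'ss-VMO, a difference of 0.33 that did not pass (limma adjusted p = 0.148). Alas2, the haem synthesis enzyme of red cell precursors, lay at 0.23 and -0.17, a difference of 0.39 that did not pass (adjusted p = 0.0684). Their pooled changes are 0.08 and 0.03.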

How the results depend on the processing

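The main counts were 20 genes higher, 6 lower and 9 that differ between the reagents. They moved, in that order, to 0, 0 and 3 with no filter on low signal (1858 genes at unadjusted p under 0.05, lowest adjusted p 0.0615), to 66, 34 and 102 with the filter at the median, to 126, 69 and 197 with a trend in the prior variance, to 11, 3 and 5 after quantile normalization again, and to 22, 10 and 71 after centring each array on its median. With the mean of all probe sets of a gene the difference was called for 15 genes, and with 2 groups only 0 rose and 0 fell. The cause of these moves was not tested. Leaving out 1 array gave 0 to 6 genes higher, 0 to 2 lower and 1 to 18 that differ, with 0 higher and 0 lower without either control array, where the lone control array is assumed to vary like the other groups. A fit with the replicate number as a block called 24 higher, 9 lower and 23 that differ, with 21 of the 26 genes shared. The numbers were not shown to pair the arrays (correlations of deviations -0.102, 0.0207 and -0.0345). No named gene among the called ones changed sign in any of these fits. Of the values that did not pass, Pdgfra turned to 0.063 without control array 1 (-0.067 without control array 2), 0.006 without pA-VMO array 1 and 0.004 without 5'ss-VMO array 2, and Cd79b (-0.008) and Slc4a1 (-0.019) turned without control array 1 (highest 0.133 and 0.162, without control array 2).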

Other observations

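Some of the clearest differences between the reagents cancel in the pooled change. Chosen after their values were seen, Saa3, an acute-phase protein gene, lay at 8.02 and 8.6 in control, 7.3 and 7.54 with pA-VMO and 8.78 and 8.93 with 5'ss-VMO. Its reagents lay on opposite sides of control, at -0.89 and 0.54, and differed by -1.43 (limma adjusted p = 0.0249), while the pooled change was -0.17 (adjusted p = 0.696). Kcnk9, a potassium channel gene, lay at 0.25 and -0.26, with a pooled change of 0.00 (adjusted p = 0.992) and a difference of 0.51 (adjusted p = 0.0433). The interferon-responsive genes Phf11a and Ifit3b did not pass in the pooled change (0.44, adjusted p = 0.0829, and 0.37, adjusted p = 0.141), with pA-VMO at 0.08 and 0.01 and 5'ss-VMO at 0.81 and 0.73.

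Snora44, a small nucleolar RNA outside the rule for named genes, had the pooled value farthest below 0 of the 14953 genes (-1.05) and was not called (adjusted p = 0.0565). It lay at 9.84 and 10.46 in control, 10.14 and 10.2 with pA-VMO and 8.25 and 7.81 with 5'ss-VMO. The pA-VMO arrays lay within the control range, and the whole of the value came from 5'ss-VMO (-2.12).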
